A study of Bos taurus with 6 samples.

Results

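HOX genes encode homeodomain transcription factors and lie in 4 clusters, HOXA, HOXB, HOXC and HOXD. The members described here are the genes of the mRNA count table whose symbol is HOX, a cluster letter and a paralog number, and they were 34 of 25444 genes. HOXA had 10 of them, HOXB 7, HOXC 8 and HOXD 9. HOXA6, HOXB5, HOXB6, HOXB13 and HOXC10, which are among the 39 HOX genes that RefSeq lists for cattle, were not in that table. They could not be assessed, and the sums below leave them out.

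Within a cluster the genes stand in a row, and in the embryo their order along the chromosome follows the order in which they are used from head to tail. Genes with low paralog numbers act in the hindbrain and neck, those in the middle act in the trunk, and those with high numbers act in the lumbar region, the tail and the far ends of the limbs. Genes with the same number in different clusters are paralogs and share much of their function. Adult fibroblasts and fat depots keep part of this pattern, so that the set of HOX transcripts in a tissue differs between body sites. In fat, HOXC8 is known as a repressor of brown adipocyte formation, and HOXC9 is used as a marker of white adipocytes.

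Intramuscular fat (IMF) was compared between castrated males (steers) and intact males (bulls) of the Chinese Qinchuan breed, all aged 24 months and weaned at 3 months, the steers having been castrated at 6 months. The animals shared a sire and a diet, and IMF was dissected from the sternomandibularis, a muscle of the neck. For mRNA there was 1 pooled library per group, of 6 animals by the design text and of 3 by the sample labels. For small RNA there were 2 pooled libraries per group, each of 3 animals by the design text and of 1 by the labels.

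The mRNA libraries held 12677375 counts in steers against 9868415 in bulls. HOX genes contributed 2777 of these in steers and 2323 in bulls, 219 and 235 when set per 1e6 counts of the library (CPM). Of the 34 genes, 29 had a count in either library, 24 in both, 2 in steers alone and 3 in bulls alone. A count of 0 allows up to 3 counts, or 0.237 CPM in steers and 0.304 CPM in bulls. At least 10 counts over both libraries were found for 23 genes, and 6 had 1 to 9. Counts were not divided by transcript length, so they are compared between libraries for each gene and not between genes.

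The HOX transcripts counted in this neck fat were those of the hindbrain, neck, trunk and lumbar genes, with few or no counts for the genes of the far end. Every gene with paralog numbers 4 to 8 in the table, 12 of 12, had a count in both libraries. HOXA6, HOXB5 and HOXB6 have such numbers but were not in it. The annotated span of HOXA5 overlaps that of HOXA6, and the span of HOXB3 overlaps those of HOXB5 and HOXB6. Among paralogs 1 to 3, HOXB1 had 1 count in steers and 0 in bulls, and HOXD1 had 6 and 5, whereas HOXA3 had 58 in each library and HOXB3 had 103 and 134. The annotated span of HOXA3 overlaps those of HOXA4 and HOXA5. HOXB1 patterns the embryonic hindbrain. Among the group 9 genes, HOXA9 had 95 and 84 counts, HOXC9 had 112 and 106, and HOXD9 had 170 and 87, while HOXB9 had none. Groups 11 to 13, whose members shape the forearm, the digits and the hindmost body, were at or below 4 counts in either library. HOXA11 had 4 counts in steers against 0 in bulls, a difference whose counting interval included 0. HOXD12 had 0 and 2, and HOXC13 and HOXD13 each had 0 and 1. HOXA13, HOXC11, HOXC12 and HOXD11 had none in either library.

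**Figure D1:**
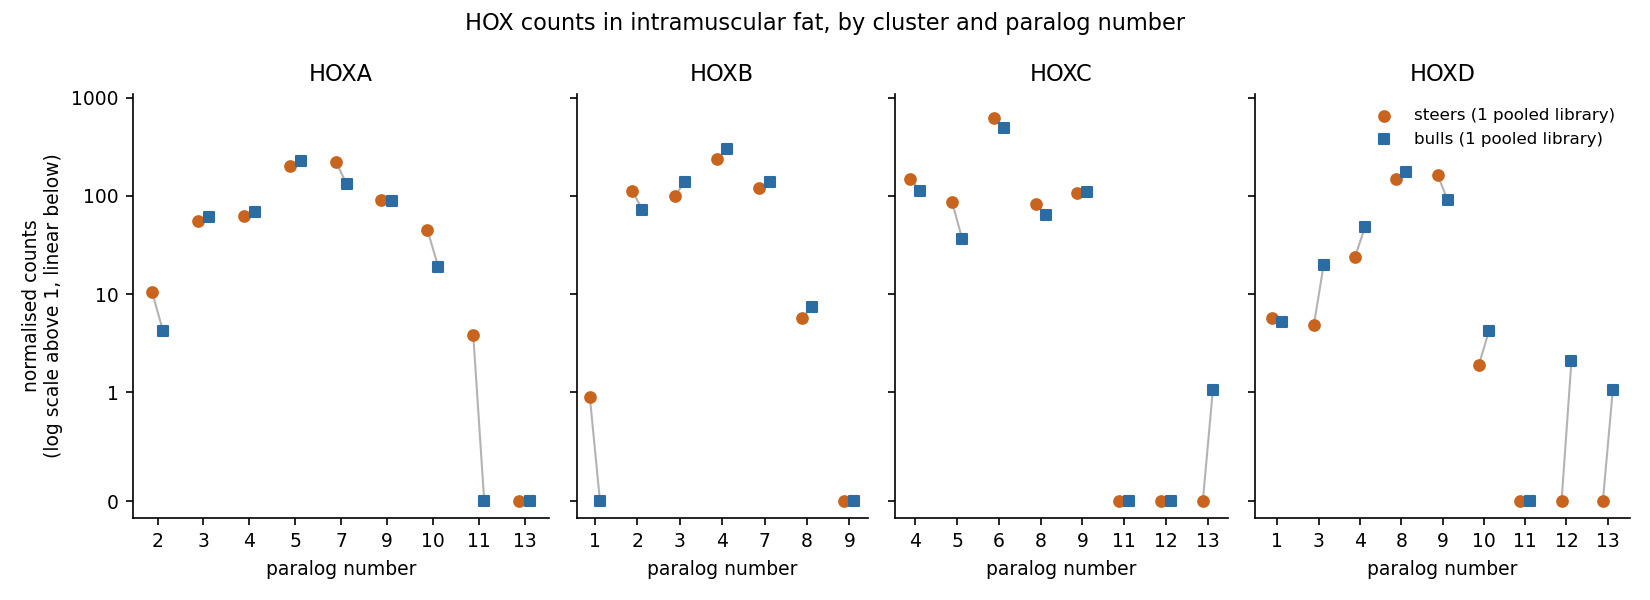
Normalised counts (y axis, logarithmic above 1 and linear below) of HOX genes in the steers library (circles) and the bulls library (squares), by cluster and paralog number, with 1 pooled library per group and so no error bars. HOXC6 stood at 617 in steers and 487 in bulls. The plotted genes numbered 11 to 13, in HOXA, HOXC and HOXD, lay at or near 0.

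Castrated and intact animals were then compared gene by gene. Each pair of counts was tested against the share set by the size factors, and a gene was called when its Benjamini-Hochberg adjusted p was under 0.05 and its fold change over 2. With 1 library per group the test compares these libraries and not the conditions, so no p-value is given and the 95% intervals cover counting error only. Of the 29 HOX genes with a count, 2 were called higher in steers, HOXA10 and HOXC5, and 2 were called lower, HOXD3 and HOXD4. Over all 17752 genes with a count, 4.37% were called higher in steers and 8.13% lower. The remaining 25 HOX genes were not called.

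The tissue held the transcripts of its labelled cell type and of others. The calls in each marker list stand beside 4.37% called higher and 8.13% called lower in steers over all genes. All 11 adipocyte markers in the table had counts, with a summed level of 4933 CPM in steers and 5038 CPM in bulls. CPM are set by library totals, whereas the calls use size factors. After size factors the log2 ratio of the adipocyte sums was 0.21 from 0.19 to 0.23, the other direction. Of these 11 markers, 3 were called higher and 1 lower in steers, and 5 had a log2 fold change above 0 and 6 below. Skeletal muscle markers, 13 of 13 with counts, summed to 2718 CPM in steers and 4739 CPM in bulls, with 1 called higher and 2 lower in steers. Fibroblast and matrix markers, mostly collagen genes by counts, summed to 130184 CPM in steers and 76203 CPM in bulls. Of these 10 markers 4 were called higher in steers and 0 lower, 9 had a log2 fold change above 0, and PDGFRA, named here after its value was seen, was at -0.48 from -0.57 to -0.40. Endothelial markers were at 853 CPM in steers and 1023 CPM in bulls, and 0 of 9 were called. T lymphocyte markers were at 14.4 CPM in steers and 107 CPM in bulls, with 9 of 10 called lower in steers and CD3G at 0 counts there. Myeloid markers were at 2641 and 8634 CPM, with 9 of 11 called lower in steers. In bulk tissue, fewer cells of a type and less RNA per cell cannot be told apart, and the part of these levels in the HOX values was not tested.

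HOXC5, which acts with its paralogs around the boundary of neck and thorax, had 90 counts in steers against 35 in bulls, or 86.3 and 36.5 after normalisation. Its log2 fold change was 1.24 with a 95% interval from 0.66 to 1.85. HOXA10, known for its part in the lumbar spine and the uterus, had 47 counts in steers against 18 in bulls, 45.1 and 18.8 normalised. Its log2 fold change was 1.26, from 0.45 to 2.13. The lower bounds of both intervals lay above 0 but under the 2-fold limit. With total-count scaling HOXC5 came to 1.001 and HOXA10 to 1.02, just past that limit.

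HOXD3 and HOXD4, adjacent genes that pattern the first vertebrae of the neck, were both lower in steers. HOXD3 had 5 counts in steers against 19 in bulls, 4.79 and 19.8 normalised, a log2 fold change of -2.05 with an interval from -3.83 to -0.58. HOXD4 had 25 against 46, 24.0 and 48.0 normalised, a log2 fold change of -1.002 from -1.77 to -0.27. HOXD4 lay at the 2-fold limit itself. With a prior of 0.5 counts added to each library, a setting chosen after seeing the data, its value was -0.99 and the call was lost. The annotated spans of HOXD3 and HOXD4 overlap, and the strand setting of the counting is not given in the sources used here, so reads from the shared stretch cannot be told apart. If a biological coefficient of variation of 0.2 between libraries was assumed, none of these 4 HOX genes was called.

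**Figure D2:**
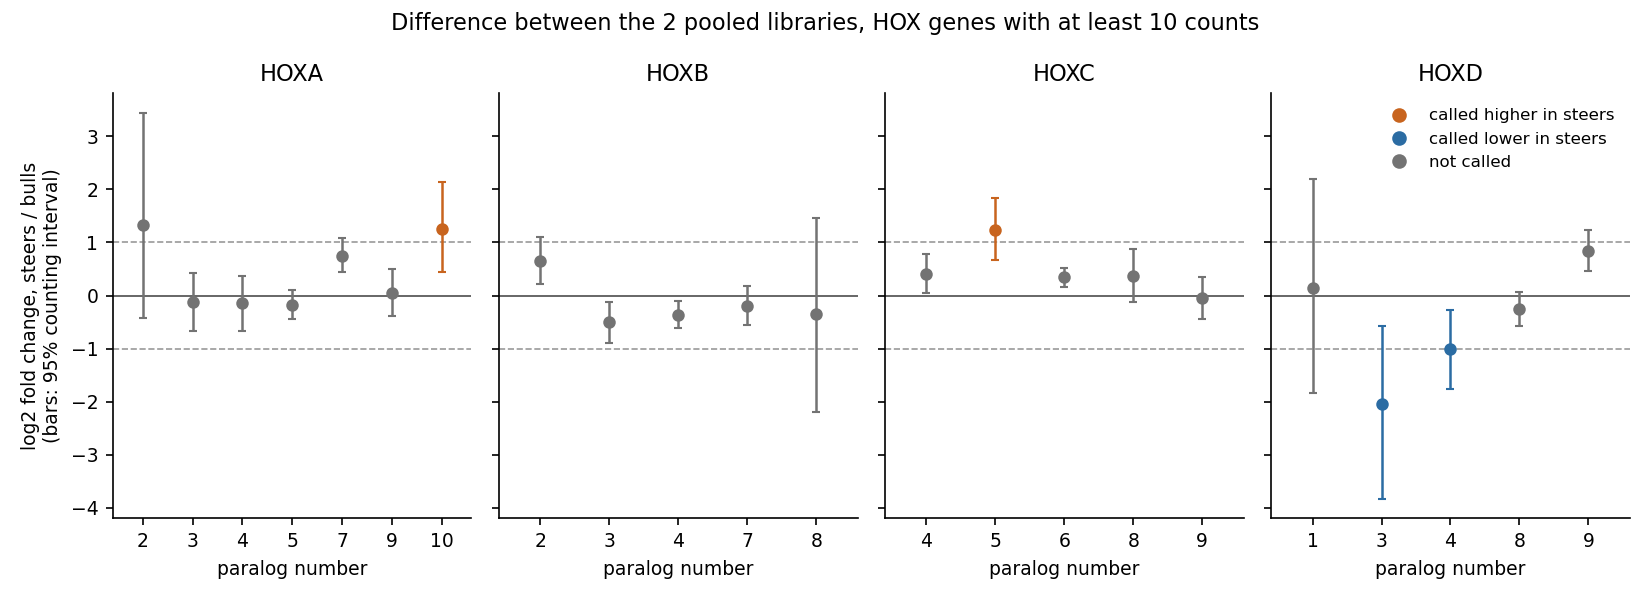
Log2 fold change of steers over bulls (y axis) for HOX genes with at least 10 counts over both libraries, by cluster and paralog number. Bars are 95% counting intervals and dashed lines mark a 2-fold difference. HOXA10, HOXC5 and the uncalled HOXA2 lie above the upper line, HOXD3 below the lower one and HOXD4 on it.

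Most other members differed by less. Of the 23 genes with at least 10 counts, 11 had a log2 fold change above 0 and 12 below, and 13 lay within 0.5 of 0. Their median was -0.04, against 0.01 over the 14540 genes with as many counts, and 17.4% of them lay beyond 2-fold, against 17.8% of all. These medians and shares use a prior of 0.5 counts, with which HOXD4 lay inside 2-fold. On the same scale the quartiles were -0.29 and 0.53 for HOX genes and -0.42 and 0.36 for all genes. The counting interval lay above 0 for 7 HOX genes, below 0 for 4 and across 0 for 12. With total-count scaling this became 4 above, 7 below and 12 across, as HOXB2, HOXC4 and HOXC6 came to cross 0 and HOXA5, HOXB7 and HOXD8 came to lie below it.

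Log2 fold changes are given here with their 95% intervals. The uncalled genes with intervals above 0 were HOXA7, HOXB2, HOXC4, HOXC6 and HOXD9. HOXD9, which acts in the lumbar region and the limb, had 170 counts in steers against 87 in bulls, at 0.84 from 0.46 to 1.23. HOXA7, a gene of the thoracic trunk, had 233 and 127, at 0.75 from 0.44 to 1.08. HOXB2, which patterns the hindbrain, had 118 and 69, at 0.65 from 0.21 to 1.10. The other two were smaller. HOXC4 had 155 and 107 counts, at 0.41 from 0.05 to 0.78, and HOXC6, a gene of the upper thorax, had 644 and 467, at 0.34 from 0.17 to 0.52. The uncalled genes with intervals below 0 were neighbours in the HOXB cluster. HOXB3 had 103 counts in steers against 134 in bulls, at -0.50 from -0.89 to -0.12. HOXB4, also known for expanding blood stem cells in culture, had 245 and 289, at -0.36 from -0.61 to -0.11. The annotated spans of HOXB3 and HOXB4 overlap as well.

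For the other genes described here the interval crossed 0, the fat-related HOXC8 and HOXC9 among them. HOXC8 had 86 counts in steers against 61 in bulls, at 0.37 from -0.12 to 0.87, and HOXC9 had 112 and 106, at -0.04 from -0.44 to 0.35. HOXA5, which acts at the base of the neck and in the lung, had 211 and 218, at -0.17 from -0.45 to 0.11. HOXA3, needed for the thymus and parathyroid glands, was at -0.12 from -0.67 to 0.43, and HOXA4, with 65 and 66 counts, at -0.14 from -0.66 to 0.37. The span of HOXA3 overlaps those of HOXA4 and HOXA5, so reads from the shared stretches cannot be told apart. HOXA9, a regulator of blood progenitors, was at 0.06 from -0.38 to 0.50, a value that turned to -0.18 when libraries were scaled by their totals. HOXB7, with 125 and 131 counts, was at -0.19 from -0.56 to 0.17, and HOXD8, with 155 and 169, at -0.25 from -0.57 to 0.08. Differences within these bounds are not excluded at these depths. HOXA2, which gives the second pharyngeal arch its identity, had 11 counts in steers against 4 in bulls, at 1.34 from -0.42 to 3.44. HOXB8, with 6 and 7 counts, was at -0.34 from -2.19 to 1.45, and HOXD1 at 0.14 from -1.83 to 2.19, which turned to -0.10 by totals. HOXD10 had 2 and 4 counts.

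Summed by cluster, HOXC was higher and HOXB lower in steers. HOXC genes had 1087 counts in steers against 777 in bulls, a log2 ratio after size factors of 0.36 with an interval from 0.23 to 0.50. HOXB genes had 598 and 630, at -0.20 from -0.36 to -0.03. HOXC thus made up 39.1% of HOX counts in steers (exact binomial interval 37.3% to 41.0%) and 33.4% in bulls (31.5% to 35.4%). HOXB made up 21.5% in steers (20.02% to 23.1%) and 27.1% in bulls (25.3% to 29.0%). These shares do not depend on how the libraries are scaled. HOXA, with 729 and 583 counts, was at 0.20 from 0.04 to 0.36, and HOXD, with 363 and 333, at 0.00 from -0.22 to 0.22. Scaled by total counts, which moved the median of all genes from 0.01 to -0.23, HOXA turned to -0.039, HOXD to -0.24 and the sum over all HOX genes from 0.14 to -0.10, whereas HOXC was at 0.12 (-0.01 to 0.26) and HOXB at -0.44 (-0.60 to -0.27). Without HOXC6, the member with most counts in its cluster, HOXC was at 0.39, and without HOXB4 the HOXB ratio was -0.07 with an interval from -0.29 to 0.15.

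By paralog number, the central genes (4 to 8) in the table had 73.5% of the HOX counts in steers and 74.2% in bulls. Counts were not divided by transcript length, so these shares compare the libraries and do not rank the classes. The posterior genes (9 to 13) had 430 counts in steers against 303 in bulls, a log2 ratio of 0.38 from 0.17 to 0.60, which came to 0.14 (-0.07 to 0.36) with total-count scaling. The central genes had 2040 and 1723, at 0.12 from 0.03 to 0.21, which turned to -0.12 by totals. The anterior genes (1 to 3) had 307 and 297, at -0.07 from -0.31 to 0.16. Single paralog groups did not follow their number in order. Group 2 was at 0.70 (0.27 to 1.13), group 3 at -0.47 (-0.77 to -0.17) and group 4 at -0.17 (-0.36 to 0.01). Group 5 was at 0.13 (-0.12 to 0.38), group 7 at 0.35 (0.12 to 0.59) and group 8 at -0.06 (-0.33 to 0.20). Group 9 was at 0.32 (0.09 to 0.55). Group 10, without HOXC10 and almost all of it HOXA10, was at 1.03 (0.28 to 1.83). Total-count scaling shifts each of these values by -0.24. The intervals of groups 7 and 9 then cross 0, and those of groups 4 and 8 lie below it.

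Within HOXD the summed ratio differed in sign between anterior and posterior genes. Its anterior genes, HOXD1 and HOXD3, had 11 counts in steers against 24 in bulls, at -1.25 from -2.42 to -0.16. Its central genes, HOXD4 and HOXD8, had 180 and 215, at -0.38 from -0.67 to -0.09. Its posterior genes had 172 and 94, at 0.75 from 0.38 to 1.13, and 170 and 87 of these counts were HOXD9. These 3 directions were the same with total-count scaling, at -1.49, -0.62 and 0.51. HOXD1 alone was at 0.14, so the anterior sum was lower through HOXD3, and HOXD10, HOXD12 and HOXD13 had 2 against 4, 0 against 2 and 0 against 1 counts. In HOXA the posterior genes were at 0.40 from 0.02 to 0.77, or 0.16 from -0.22 to 0.54 by totals, the central genes at 0.19 from 0.00 to 0.38, a value that turned to -0.05 by totals, and the anterior genes at -0.04 from -0.53 to 0.45. In HOXC the central genes were at 0.42 from 0.28 to 0.56 and the posterior genes at -0.06 from -0.45 to 0.34, which came to 0.18 and -0.30 by totals. In HOXB the central genes were at -0.31 from -0.51 to -0.10 and the anterior genes at 0.01 from -0.27 to 0.29, which came to -0.23 by totals.

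**Figure D3:**
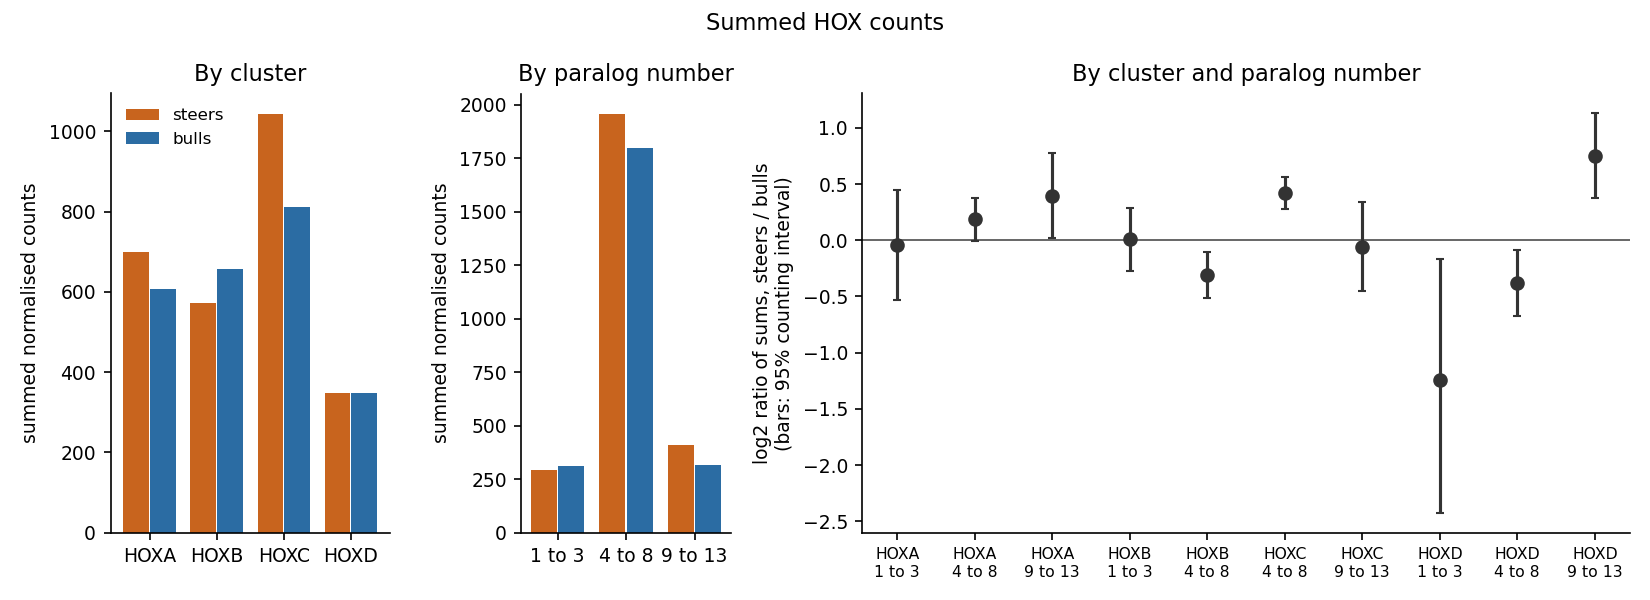
Left and middle, summed normalised counts of HOX genes by cluster and by paralog number in the steers and bulls libraries (1 pooled library each, bars from 0, no error). Right, log2 ratio of the sums for each cluster and range of paralog numbers, with 95% counting intervals. HOXD runs from -1.25 for paralogs 1 to 3 to 0.75 for paralogs 9 to 13, directions that total-count scaling kept, while it turned the sign of HOXA 4 to 8 to -0.05 and of HOXB 1 to 3 to -0.23.

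HOX proteins bind DNA together with cofactors of the PBX, MEIS and PKNOX families. Of 9 such genes 8 were in the table, and 1 was called higher in steers and 0 lower, against 4.37% and 8.13% of all genes, with a median log2 fold change of 0.06. The called gene was PKNOX2, the cofactor with most counts. It had 519 counts in steers against 230 in bulls, at 1.05 from 0.83 to 1.28, and with total-count scaling it came to 0.81 and was not called.

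HOX clusters are kept silent by Polycomb group proteins, which mark their chromatin with methylated histone H3, and are kept active by MLL complexes and by demethylases that remove that mark. Of 18 Polycomb group genes measured, 0 were called higher and 2 lower in steers, against 4.37% higher and 8.13% lower over all genes, and the median log2 fold change was 0.06. EZH2, the methyltransferase of the repressive complex, had 29 counts in steers against 93 in bulls, at -1.80 from -2.46 to -1.19. JARID2, which guides that complex to its sites, had 81 and 197, at -1.40 from -1.80 to -1.02. EZH1, the paralog of EZH2 and the list's gene with most counts, had 2019 and 1679, at 0.14 from 0.05 to 0.24. The T lymphocyte and myeloid markers, with medians of -3.16 and -1.70, were lower in steers in the same libraries, and their part in the EZH2 and JARID2 values was not tested. Of the MLL complex and demethylase genes 6 of 11 were in the table. KMT2A, KMT2B, KMT2C and KMT2D, which encode the MLL methyltransferases, and WDR5 were not in it and could not be assessed. Of the 6 genes measured, 0 were called in either direction, at a median of 0.06. The gene with most counts, MEN1, which encodes the scaffold protein menin, had 470 and 376, at 0.20 from 0.00 to 0.40.

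Other transcription factor genes that mark position along the body or the limb were represented by 19 of 22 genes, 15 of them with a count. Of these, 2 were called higher in steers and 0 lower, and the median log2 fold change was 0.34, against 0.01 over all genes. The shares over all genes were 4.37% and 8.13%. IRX3, an Iroquois factor of limb and neural patterning, had 189 counts in steers against 46 in bulls, at 1.92 from 1.44 to 2.41. SHOX2, which acts in the upper limb skeleton and in the pacemaker of the heart, had 136 and 49, at 1.35 from 0.87 to 1.85. Both calls held with total-count scaling, but SHOX2 was not called with an assumed coefficient of variation of 0.2 between libraries, nor either gene with 0.4. Of the fibroblast and matrix markers, 4 of 10 were called higher in steers, with a list median of 0.97, and their part in the IRX3, SHOX2, HOXC5 and HOXA10 values was not tested.

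**Figure D4:**
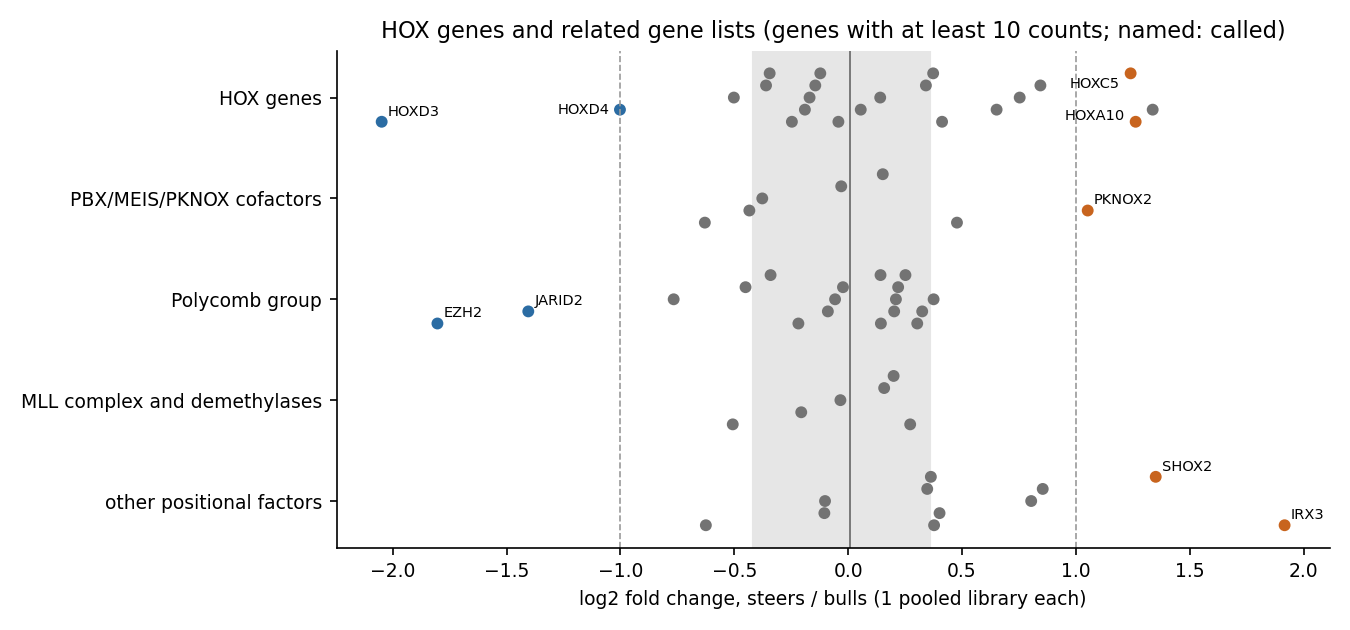
Log2 fold change of steers over bulls (x axis, 1 pooled library each) for genes with at least 10 counts over both libraries, as points by list, with small vertical offsets for legibility. The shaded band spans the quartiles of all genes with as many counts, -0.42 to 0.36, dashed lines mark 2-fold, and called genes are coloured and named. PKNOX2 lies just past the upper line (0.81 and uncalled with total-count scaling), and EZH2 and JARID2 lie past the lower one.

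The HOX clusters also encode microRNAs, short RNAs that repress mRNAs matched by their seed, bases 2 to 8 from the 5′ end. In the RefSeq annotation of cattle, MIR10A lies within the span of HOXB3 on chromosome 19 and MIR10B within that of HOXD4 on chromosome 2. MIR196A-1 lies within that of HOXB9 on chromosome 19, MIR196A-2 between HOXC9 and HOXC10 on chromosome 5, MIR196B between HOXA9 and HOXA10 on chromosome 4, and MIR615 within the span of HOXC5 on chromosome 5. Their mature sequences, from the study's list of bovine microRNAs, are shown because the members of each family share a seed and could share targets. They are written 5′ to 3′ with the seed in capitals.
miR-10a: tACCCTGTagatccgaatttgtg
miR-10b: tACCCTGTagaaccgaatttgtg
miR-196a: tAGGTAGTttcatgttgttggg
miR-196b: tAGGTAGTttcctgttgttggga
miR-615: gGGGGTCCccggtgctcggatc
Counting from 1 at the 5′ end, miR-10a and miR-10b differ by T12A, with the base of miR-10a first. In the same notation miR-196a and miR-196b differ by A12C, and miR-196b has 1 more base at its 3′ end. Both differences lie outside the seed.

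Among these 5 microRNAs, miR-10b was higher in steers and the others were not called. miR-10b had 2183186 and 1833794 counts in the steers libraries and 916998 and 673224 in the bulls libraries, between 20.7% and 20.9% of all counts in steers and between 10.3% and 11.8% in bulls. After TMM scaling it stood at 247142 ± 46684 CPM in steers and 96736 ± 34734 CPM in bulls (SD, n = 2 libraries each). Its groups did not overlap, but how many of all tested sequences showed the same was not counted. Its log2 fold change was 1.35 with an SE of 0.40 and an adjusted p of 0.0123 (edgeR quasi-likelihood test, Benjamini-Hochberg over 1073 sequences), and 7.08% of those sequences were called higher and 7.08% lower. The call was lost with total-count scaling, at 0.92 and an edgeR adjusted p of 0.0693, and when sequences with 1 count in any library were kept, at 1.26 and 0.841. With total counts edgeR called 1 of the 1073 sequences, and with the looser filter it called 0.41% higher and 0.43% lower. It was also lost without steers library 1, at 1.19, without steers library 2, at 1.56, and without bulls library 2, at 0.99, and it held without bulls library 1, at 1.97.

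miR-10a, which has the same seed, had 191794 and 143952 counts in steers against 150197 and 112635 in bulls. Its levels overlapped, at 20710 ± 5517 CPM in steers and 15971 ± 5510 CPM in bulls (SD, n = 2 each), and its log2 fold change was 0.37 (SE 0.44, edgeR adjusted p 0.604). The difference between miR-10a and miR-10b in response was not tested. miR-196b, with 1579 and 1750 counts in steers against 1350 and 1597 in bulls, was at 203 ± 1.22 and 175 ± 5.21 CPM (SD, n = 2 each). Its groups did not overlap after TMM scaling. As shares of all library counts they did, at 0.0151% and 0.0198% in steers against 0.0173% and 0.0244% in bulls. The log2 fold change of miR-196b was 0.22 with an SE of 0.48 and an edgeR adjusted p of 0.796. The share of all tested sequences without overlap between groups was not counted. miR-196a was rarer, with 49 and 36 counts in steers against 87 and 75 in bulls. Its log2 fold change of -0.90 had an SE of 0.53 and an edgeR adjusted p of 0.253, with no overlap between groups. miR-615 had 30 and 39 counts in steers against 13 and 38 in bulls. Its groups overlapped, and the log2 fold change was 0.52 (SE 0.54, edgeR adjusted p 0.556). With total-count scaling the values of miR-10a, miR-196b and miR-615 turned to -0.076, -0.26 and -0.030.

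**Figure D5:**
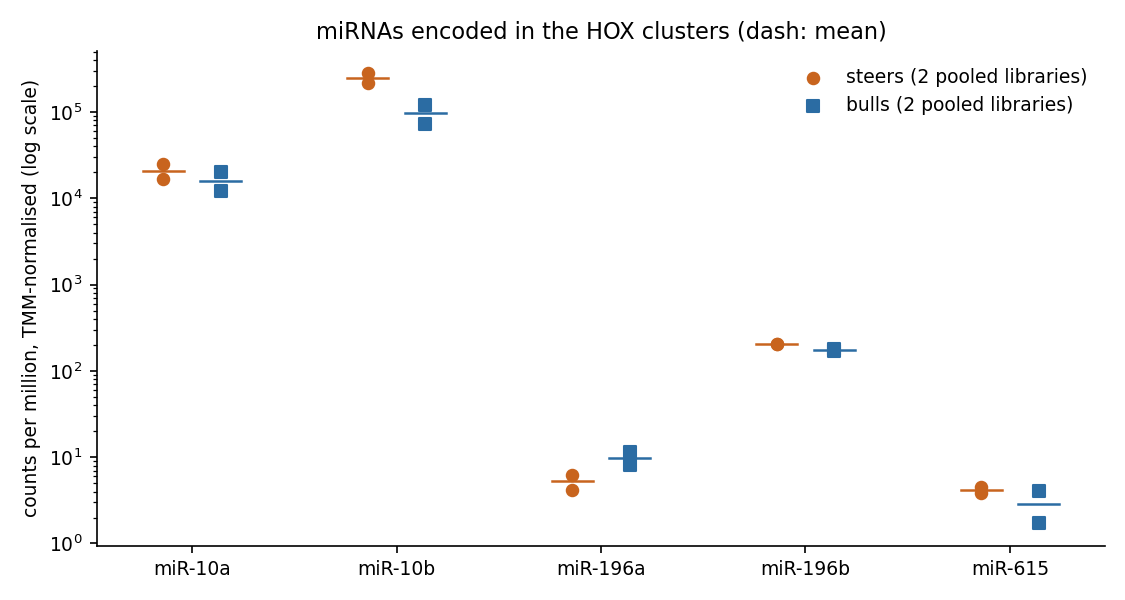
TMM-normalised CPM (y axis, logarithmic) of the 5 microRNAs of the HOX clusters in the 2 steers libraries (circles) and the 2 bulls libraries (squares), with dashes at the group means. Both steers points of miR-10b, 280152 and 214131 CPM, lie above both bulls points, 121296 and 72175 CPM, while the points of miR-10a and miR-615 overlap.

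The values of the microRNAs and of the HOX genes around them are set side by side here. miR-10b was higher in steers (1.35), while HOXD4, in whose span it lies, and HOXD3 were lower in the mRNA libraries (-1.002 and -2.05). miR-10a and miR-615 were not called, and total-count scaling turned their signs, from 0.37 to -0.076 and from 0.52 to -0.030. HOXB3, in whose span miR-10a lies, was at -0.50, and HOXC5, in whose span miR-615 lies, at 1.24. HOXB8 and HOXC8, known targets of miR-196, were at -0.34 and 0.37, and HOXD10, a known target of miR-10b, had 2 counts in steers against 4 in bulls. The mRNA and small RNA libraries were pooled separately, by the study's methods from the same animals of each group. No relation between them was tested.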

How the data were processed

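Each mRNA library was sequenced on the Ion Proton and aligned with MapSplice to a bovine genome, and each small RNA library was sequenced on an Illumina HiSeq, aligned with BWA and assigned to microRNAs with miRBase and miRDeep. The submitters' processing notes name GRCh37.p13 as the build, which is a human build. The counting program, gene annotation and strand setting are not given in the sources used here. The authors deposited raw counts per gene and raw counts per small RNA sequence, and no other unit was used. Groups were taken from the sample labels. The labels do not say that the small RNA libraries of a group hold different animals, so p-values measure only the spread between these libraries, which may be technical.

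mRNA counts were divided by median-of-ratios size factors (1.04 for steers, 0.959 for bulls) to give normalised counts. Each of 17752 genes with a count was tested with a two-sided exact binomial test (scipy 1.17.1) and Benjamini-Hochberg adjustment, and called at an adjusted p under 0.05 and a fold over 2, the limits of the study's methods. Intervals are 95% Clopper-Pearson. Medians, quartiles and shares beyond 2-fold use a prior of 0.5 counts. Small RNA counts were fitted with edgeR 4.0.16 (quasi-likelihood, TMM, filterByExpr, 1073 sequences) on totals of 6556511 to 10452582 per library. The scripts were tested on simulated counts. Alternatives were scaling, count filters, priors, an assumed spread, left-out libraries, a replicate block, DESeq2 1.42.0 and limma-voom 3.58.1. RefSeq (ARS-UCD2.0) served for names and gene order alone, and no genome coordinates are given. Symbols matched RefSeq for 34 of 34 HOX genes. HOX members, gene lists and tests were chosen with earlier results of these data known. Every HOX gene, each called gene and the gene with most counts of each list, and the HOX cluster microRNAs could be named; genes with few counts are given by counts. Results of 1 HOX gene and 1 listed gene are not reported here, and the plots by gene leave them out. Of the 34 HOX genes, 13 overlap another annotated gene and 11 another HOX gene.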

Additional observations from a re-analysis of the deposited data

How the results depend on the processing

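The 4 HOX calls rest on counting error alone. With an assumed biological coefficient of variation of 0.2 or of 0.4 between libraries, 0 HOX genes were called higher and 0 lower, and with 0.2 an unadjusted p under 0.05 remained for 3 (HOXA10, HOXC5 and HOXD3), the lowest adjusted p being 0.175. With 0.4 it was left for 0. With a prior of 0.5 counts, a setting chosen after seeing the data, 1 HOX gene was called lower in place of 2. PKNOX2 was not called with total-count scaling or with either assumed spread, leaving 0 cofactors. Of the Polycomb group genes 0 were called with a spread of 0.4, and of the other positional factors 1 (IRX3) was called with 0.2 and 0 with 0.4. Over all genes, 776 calls higher and 1444 lower became 368 and 762 with a spread of 0.2 and 52 and 93 with 0.4.

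Scaling by total counts gave 539 calls higher and 2006 lower, so that 21.2% of calls were higher against 34.96% before, and TMM gave 753 and 1471. It moved the cluster sums to -0.039 (HOXA), -0.44 (HOXB), 0.12 (HOXC) and -0.24 (HOXD), and those of anterior, central and posterior genes to -0.31, -0.12 and 0.14. HOXA9 turned to -0.18, HOXD1 to -0.10, miR-10a to -0.076, miR-196b to -0.26 and miR-615 to -0.030, and miR-10b came to 0.92. HOXA without HOXA5, its member with most counts, was at 0.38. Calls of HOXA10, HOXC5, HOXD3 and HOXD4 held with total counts, TMM and a minimum of 10 counts. With total counts HOXA10 (1.02) and HOXC5 (1.001) passed the 2-fold limit narrowly.

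For miR-10b, leaving out 1 library gave 0.99 to 1.97, and keeping sequences with 1 count in any library gave 1.26. The lone library of a group was then assumed to vary like the others. DESeq2, limma-voom and upper-quartile scaling kept the call, at 1.43, 1.39 and 1.53. With a replicate block, the values were 0.39 for miR-10a, 1.39 for miR-10b (edgeR adjusted p 2.8e-06), -0.90 for miR-196a, 0.22 for miR-196b and 0.59 for miR-615, and calls over all sequences moved from 76 and 76 to 133 and 119. Libraries with the same number deviated from their group means with a correlation of 0.304, and by the labels they share only a number. With 2 libraries per group both pairs must give the same value, so it is a single correlation and does not show pairing. Where no cause is given above, the cause was not tested. No paired analysis was possible for mRNA because each group had 1 library.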

Other observations

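Outside the bovine entries, the small RNA table held 4 sequences of the miR-10 and miR-196 families under rat or mouse names, with 0 to 2 counts in each library. In the mRNA table, the genes of the HOX cluster microRNAs had 0 counts in either library except MIR10B and MIR196B, each with 0 in steers and 1 in bulls.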
